A study of Mus musculus with 9 samples.

Results

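The 10 negative feedback regulators of the lipopolysaccharide (LPS) response followed here were Socs1, Socs3, Cish, Irak3, Tnip1, Tnip3, Zfp36, Zc3h12a, Sbno2 and Bcl3. They were chosen by symbol, and each of the 10 symbols matched 1 row among the 28137 gene rows of the expression table through GENCODE M21. RNA-seq had been done on RAW264.7 cells, a mouse monocyte-macrophage leukemia line, in 3 groups of 3 libraries. The groups received a negative control siRNA (NC), SFRP2 siRNA or RAB6A siRNA. Per the labels, all 9 cultures were transfected with 60 nM siRNA for 6 h in DMEM, kept for 12 h in complete medium, and then stimulated with LPS at 100 ng/ml for 24 h before RNA was taken. The study's methods differ from these labels in the siRNA dose, the medium, the time between transfection and stimulation, and the stimulus, which there also includes IFN-γ. The sample titles carry a mark of 6 h whose meaning is not given. The titles number the libraries of all 3 groups from 1 to 3 in the same way. The study also numbers 3 different SFRP2 siRNA sequences, with 1 control sequence. Whether the SFRP2 siRNA libraries each received a different siRNA is not stated. They were treated as replicates, so that their means, SDs and p-values may include differences between siRNAs. Every group was stimulated and a group without LPS was not analysed here, so that levels of feedback genes were compared between siRNAs after LPS, and their induction by LPS was not measured. The study says in general that its data stand for independent experiments, but not whether the libraries of a group came from separate cultures, and p-values then measure only the spread between these libraries.

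LPS binds the TLR4 receptor complex and, through MyD88, TRIF and IRAK kinases, activates NF-κB and MAP kinases. The same stimulus induces genes that limit the response at several steps. SOCS proteins block JAK kinases and cytokine receptors, IRAK3 and the TNIP proteins act between the receptor and NF-κB, ZFP36 and ZC3H12A remove cytokine mRNAs, and SBNO2 and BCL3 act on transcription in the nucleus.

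FPKM, the unit used here, is the number of fragments scaled to gene length and library size. Comparison between genes depends on the length assigned to each gene, which joins all its annotated exons. Comparison between libraries depends on the rest of the RNA, of which FPKM is a share. Orders, ratios and shares of levels given below carry these limits. Reads recovered from the FPKM values gave a depth of 41608379 to 47149258 reads in NC libraries, 34743304 to 40562562 in SFRP2 siRNA libraries and 32758729 to 37833882 in RAB6A siRNA libraries. All 10 macrophage markers looked up were present in every library, with a summed level of 4756 to 5219 FPKM in NC, 4238 to 4562 FPKM in SFRP2 siRNA and 4069 to 4237 FPKM in RAB6A siRNA libraries. Summed levels of T cell, B cell, neutrophil, fibroblast and epithelial markers stayed at or below 3.32 FPKM in every library. Sfrp2 itself had 2 to 4 reads in each of the 9 libraries, too few to check its silencing. Rab6a was at 20.7 ± 0.445 FPKM (SD, n = 3) in RAB6A siRNA libraries and at 25.7 ± 1.48 FPKM (SD, n = 3) in NC libraries, and fell by 0.31 on the log2 scale (SE 0.06, limma adjusted p = 0.0024). Of all 12712 genes tested in this comparison, 74.1% had an adjusted p under 0.05 (limma). Only 26.7% of all genes tested had a smaller absolute log2 fold change than Rab6a.

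Short stretches of the regulators' own genes are shown first, since several of these genes are known to be controlled by the pathways they restrain. The 250 bases upstream of each RefSeq transcription start (13 windows for the 10 genes, build GRCm38.p6) were searched on both strands. TTCNNNGAA, the core letters bound by STAT dimers, was found upstream of 4 of the 10 genes, in 5 of 13 windows, and in 7.02% of 32851 windows of all genes. The match lay 17 to 9 bases before the start of Zfp36 (chr7:28379229-28379255, minus strand). It lay 26 to 18 bases before one start of Sbno2 (chr10:80102710-80102738, minus strand) and 24 to 16 bases before another (chr10:80101193-80101221, minus strand). In Tnip1 it began 199 bases (chr11:54963121-54963149, minus strand) and in Socs3 154 bases (chr11:117969502-117969530, minus strand) before the start. These starts are those of RefSeq. In GENCODE M21 the genes Zfp36, Sbno2 and Socs3 extend further, so that their matches lie within the gene bounds given below. The match of Tnip1 lies outside its bounds. The windows of Cish and Tnip3, which hold no match, lie wholly within their gene bounds. For Cish and Tnip3, sequence before the GENCODE start was therefore not searched. Capitals mark the match.
Zfp36: acagcctgacTTCTGCGAAccgacagt
Sbno2, first start: gccgcgccccTTCGCAGAAgcggaagtgc
Sbno2, second start: ccggctctgcTTCCCGGAAtgcctgtgag
Tnip1: ccccctccccTTCCTGGAAtctaccacaa
Socs3: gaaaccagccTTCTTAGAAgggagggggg

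GGG and TTCC with 3 bases between them, core letters of NF-κB sites, was found in the window of 1 of the 10 genes, Tnip1. There it gave 2 overlapping matches on opposite strands (chr11:54962981-54963004), and it was found in 4.65% of windows of all genes. Only these letters were searched for, and other forms of NF-κB sites would be missed. The Tnip3 window, for example, holds gggaaatccc, which this pattern leaves out. GAAA repeated after 2 bases, core letters of interferon-stimulated response elements, was found in the window of Socs1 alone among the 10, as 2 overlapping matches (chr16:10785598-10785625), and in 2.98% of all windows. TGANTCA, the AP-1 core, was found in none of the 13 windows and in 6.75% of all windows. Capitals mark the joined matches on the minus strand, which both genes use.
Tnip1: atcatgGGGGAATTCCCCtcctgc
Socs1: ttgccgGAAAGAGAAACCGAAAgcgggg

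The mRNAs were also searched for TATTTAT, the core of AU-rich elements to which ZFP36 binds. It was found in the 3′ untranslated region of 4 of the 10 genes (Cish 3 matches, Zfp36 3, Socs3 2, Sbno2 1), as against 25.8% of 20331 genes with such a region in GENCODE M21. The stretches shown hold 1 or more matches in capitals and lie at chr9:107301374-107301400 (Cish, plus strand), chr7:28376967-28376993 (Zfp36), chr11:117966140-117966166 (Socs3) and chr10:80057044-80057070 (Sbno2, these 3 on the minus strand, GRCm38). A match to letters is a description of the sequence and not a site shown to be used.
Cish: agttatacagTATTTATTTATTTATtc
Zfp36: gtgggcccttTATTTATgacgacttta
Socs3: tttgcacataTATTTATATTTATactc
Sbno2: ggtttctatgTATTTATaatgaactcg

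Levels of the 10 regulators in NC libraries covered a wide range. Socs3 was highest at 248 ± 11.1 FPKM (SD, n = 3), followed by Tnip1, Zfp36, Zc3h12a, Irak3, Bcl3, Sbno2, Socs1, Tnip3 and Cish, the last at 0.504 ± 0.10 FPKM. Irak3 and Bcl3 were the only neighbours in this order whose libraries overlapped. The order was the same in SFRP2 siRNA libraries, where Socs3 and Tnip1 were the overlapping neighbours. In RAB6A siRNA libraries the order was Zfp36, Socs3, Tnip1, Bcl3, Zc3h12a, Sbno2, Irak3, Socs1, Cish and Tnip3, with overlap between Socs1 and Cish.

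**Figure D1:**
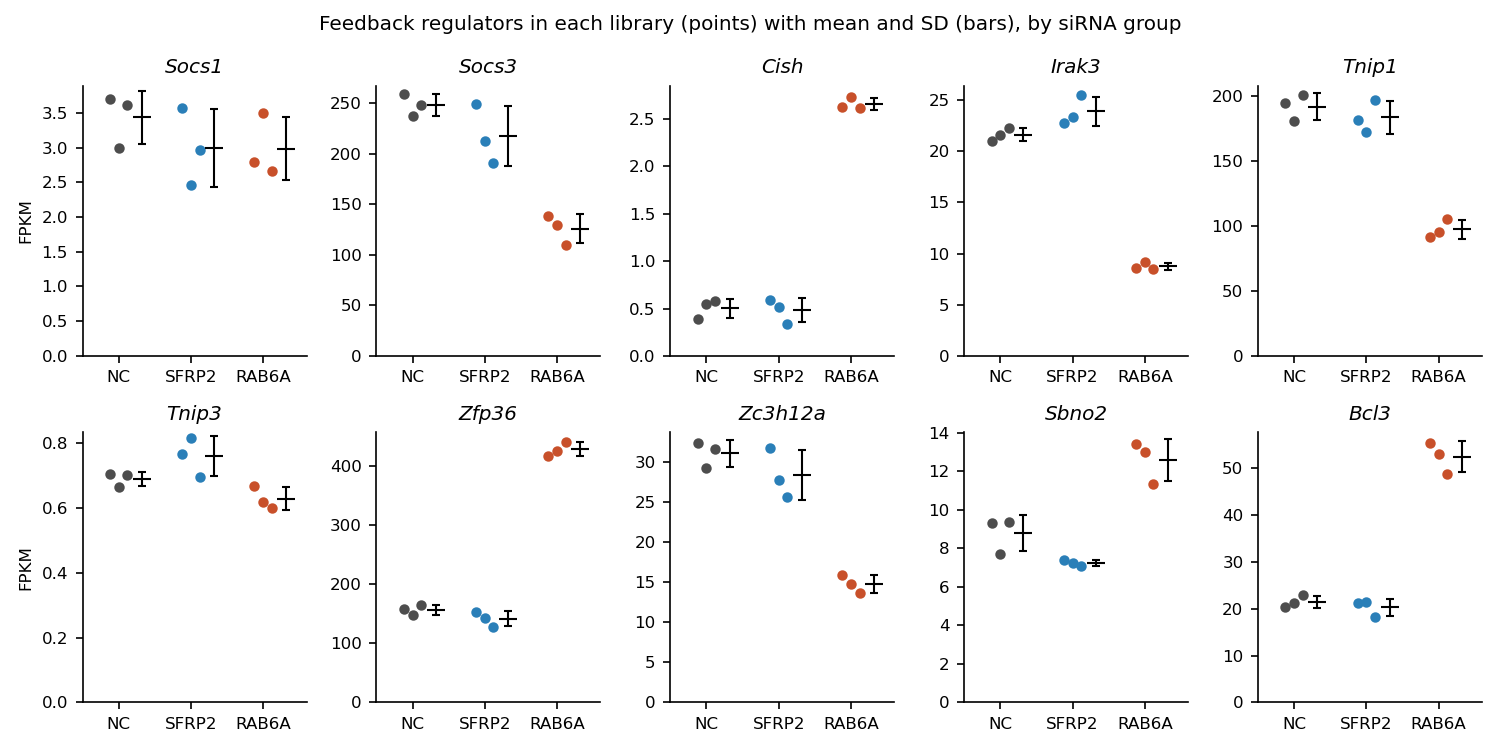
FPKM of each regulator (vertical axes from 0, scales differ) in the 9 libraries, with 1 point per library and the mean and SD of each siRNA group as a bar. RAB6A siRNA libraries lie apart from the NC libraries for 8 of the 10 genes, above them for Cish, Zfp36, Sbno2 and Bcl3 and below them for Socs3, Irak3, Tnip1 and Zc3h12a.

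The first question was whether SFRP2 siRNA altered these regulators. No change of a regulator was called at this depth and number of libraries. The study, which names DESeq2, reports both up- and downregulated genes for SFRP2 siRNA in polarized RAW264.7 cells. Its test was not repeated here, since FPKM and not counts were available. Of the 10 genes, 9 were tested, since Cish had a mean under 0.5 FPKM in this comparison, and 0 of 9 had an adjusted p under 0.05 (limma), as was the case for 0 of all 12017 genes tested (0.0%). At an unadjusted p under 0.05 there were 2 of 9 regulators, Irak3 and Sbno2, and 2220 of 12017 genes (18.5%). The same 2 regulators were those with no overlap between the 6 libraries, which held for 24.7% of all genes tested. With voom on the recovered reads, 0 regulators and 41 genes were called.

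When RAB6A siRNA was compared with NC, 8 of the 10 regulators had an adjusted p under 0.05 (limma). Among all 12712 genes tested the share was 74.1%, so that a count of 8 of 10 was near the background and is not a result about these genes. Of the 8, 4 were higher and 4 lower, with 37.6% of all genes called higher and 36.5% lower. The same 8 had no overlap between the groups, as did 77.4% of all genes. DEGs, for which the change had also to exceed 1 on the log2 scale in either direction, were 5 of the 10 regulators (Cish, Zfp36, Bcl3, Irak3 and Zc3h12a) and 30.1% of all genes. The median absolute log2 fold change was 1.03 for the 10 regulators and 0.63 for all genes tested. The median signed value was -0.16 for the regulators and 0.03 for all genes. As the 10 genes were chosen with earlier results of these data known, these values beside all genes are descriptions only.

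**Figure D2:**
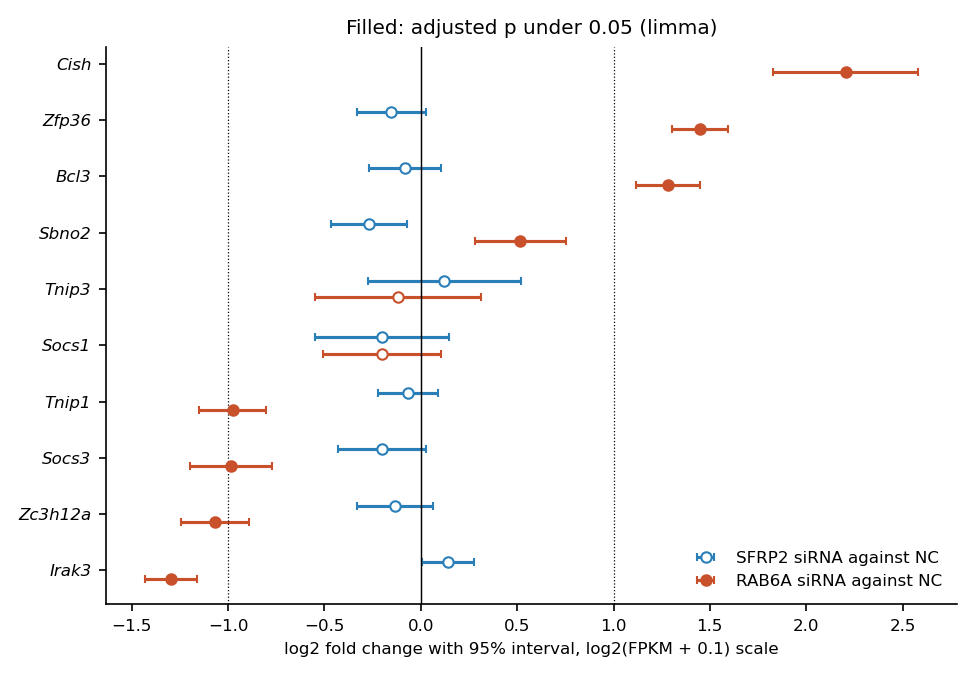
Log2 fold change with its 95% interval for SFRP2 siRNA against NC (blue) and RAB6A siRNA against NC (orange), filled where limma's adjusted p was under 0.05. The RAB6A siRNA values run from -1.30 (Irak3) to 2.20 (Cish), and those of SFRP2 siRNA from -0.27 (Sbno2) to 0.14 (Irak3); Cish was not tested for SFRP2 siRNA.

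**Figure D3:**
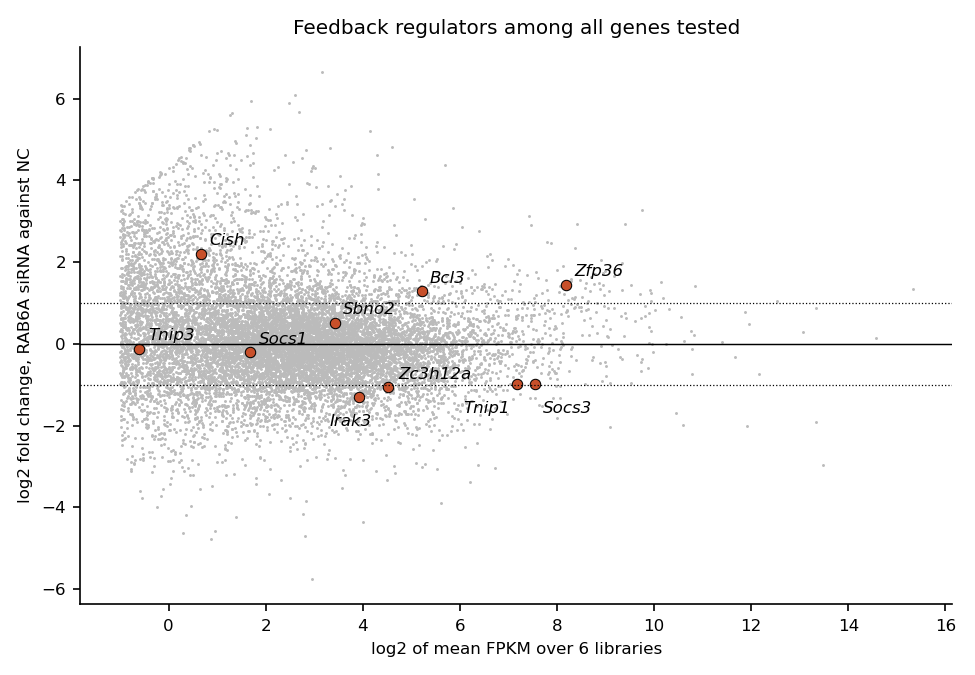
Log2 fold change of RAB6A siRNA against NC over the log2 of the mean FPKM of 6 libraries, for all 12712 genes tested (grey) and the 10 regulators (orange), with dotted lines at 1 and -1. Zfp36 and Socs3, the most abundant regulators, lie on opposite sides of 0, at 1.45 and -0.99.

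Among the brakes on JAK kinases and cytokine receptors, Socs3 fell and Cish rose under RAB6A siRNA, and no change of Socs1 was called. Gene positions are given on GRCm38 as annotated in GENCODE M21. SOCS3 binds receptors that use gp130 and inhibits the JAK kinases attached to them. Socs3 (chr11:117966079-117970047, minus strand) was at 259, 237 and 248 FPKM in NC libraries, at 249, 213 and 190.2 FPKM in SFRP2 siRNA libraries, and at 138, 129 and 110.0 FPKM in RAB6A siRNA libraries. The 3 RAB6A siRNA libraries lay below the other 6, whereas SFRP2 siRNA libraries reached into the range of NC. Against NC, Socs3 was 1.97-fold lower with RAB6A siRNA (log2 fold change -0.99, SE 0.09, limma adjusted p = 4.5e-05). The log2 fold change with SFRP2 siRNA was -0.20 (SE 0.10, limma adjusted p = 0.310).

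CISH, a relative of the SOCS proteins that is induced through STAT5, is known for restraining signals of cytokine receptors. Cish (chr9:107296026-107302784, plus strand) was at 0.389, 0.548 and 0.575 FPKM in NC libraries, at 0.591, 0.521 and 0.341 FPKM in SFRP2 siRNA libraries, and at 2.63, 2.73 and 2.62 FPKM in RAB6A siRNA libraries. RAB6A siRNA libraries were close to each other and far above the other 6, which overlapped. With RAB6A siRNA Cish was 5.27-fold higher than in NC (log2 fold change 2.20, SE 0.16, limma adjusted p = 1.4e-05). With a pseudocount of 1 in place of 0.1 the log2 fold change was 1.28. These levels rest on few reads, with 76 reads in the lowest library and at least 550 in each RAB6A siRNA library.

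SOCS1 binds JAK kinases directly and limits interferon signals. Socs1 (chr16:10782240-10785536, minus strand) was at 3.70, 3.00 and 3.61 FPKM in NC libraries, at 3.57, 2.46 and 2.96 FPKM in SFRP2 siRNA libraries, and at 2.79, 3.50 and 2.67 FPKM in RAB6A siRNA libraries. All 3 groups overlapped. The log2 fold change against NC was -0.20 with SFRP2 siRNA (95% interval -0.55 to 0.14) and also -0.20 with RAB6A siRNA (95% interval -0.51 to 0.11), and limma's adjusted p was 0.473 and 0.199.

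Between the receptor and NF-κB, Irak3 and Tnip1 fell under RAB6A siRNA, and no change of Tnip3 was called except after quantile normalization. IRAK3, also named IRAK-M, is an IRAK without effective kinase activity that holds back signals from Toll-like receptors. Irak3 (chr10:120141648-120202130, minus strand) was at 21.0, 21.6 and 22.3 FPKM in NC libraries, at 22.8, 23.4 and 25.5 FPKM in SFRP2 siRNA libraries, and at 8.55, 9.16 and 8.53 FPKM in RAB6A siRNA libraries. The 3 groups did not overlap, with SFRP2 siRNA libraries above NC and RAB6A siRNA libraries below. Irak3 was 2.47-fold lower with RAB6A siRNA than in NC (log2 fold change -1.30, SE 0.06, limma adjusted p = 2.3e-06), and its value with SFRP2 siRNA was 0.14 (SE 0.06, limma adjusted p = 0.254).

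TNIP1, also named ABIN-1, binds ubiquitin chains and the deubiquitinase A20. Tnip1 (chr11:54910785-54962917, minus strand) was at 195, 181 and 200.4 FPKM in NC libraries, at 182, 172 and 197 FPKM in SFRP2 siRNA libraries, and at 91.2, 95.7 and 106 FPKM in RAB6A siRNA libraries. The RAB6A siRNA libraries lay below the other 6, and NC and SFRP2 siRNA libraries overlapped. The level was 1.97-fold lower with RAB6A siRNA than in NC (log2 fold change -0.98, SE 0.07, limma adjusted p = 1.7e-05). With SFRP2 siRNA the log2 fold change was -0.07 (SE 0.07, limma adjusted p = 0.609).

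Tnip3 (chr6:65525313-65634040, plus strand), which encodes the related ABIN-3, was at 0.705, 0.664 and 0.700 FPKM in NC libraries. It was at 0.768, 0.818 and 0.696 FPKM in SFRP2 siRNA libraries, and at 0.668, 0.620 and 0.598 FPKM in RAB6A siRNA libraries. Every library was low, at 214 reads or more, and NC overlapped with both other groups. The log2 fold change of RAB6A siRNA against NC was -0.12 (95% interval -0.55 to 0.31, limma adjusted p = 0.584), and after quantile normalization it was -0.68 (limma adjusted p = 0.014). That of SFRP2 siRNA against NC was 0.12 (95% interval -0.28 to 0.52, limma adjusted p = 0.717).

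The mRNA decay factors moved in opposite directions under RAB6A siRNA. ZFP36, or tristetraprolin, binds AU-rich elements such as those shown above and recruits the decay machinery to cytokine mRNAs, its own included. Zfp36 (chr7:28376784-28380253, minus strand) was at 158, 148 and 164 FPKM in NC libraries, at 153, 142 and 128 FPKM in SFRP2 siRNA libraries, and at 417, 425 and 441 FPKM in RAB6A siRNA libraries. The RAB6A siRNA libraries were far above the other 6, among which NC and SFRP2 siRNA overlapped. Zfp36 was 2.73-fold higher with RAB6A siRNA than in NC (log2 fold change 1.45, SE 0.06, limma adjusted p = 2.0e-06). The log2 fold change with SFRP2 siRNA was -0.15 (SE 0.08, limma adjusted p = 0.319).

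ZC3H12A, or regnase-1, is an endoribonuclease that cuts stem-loops of cytokine mRNAs. Zc3h12a (chr4:125118423-125127840, minus strand) was at 32.3, 29.2 and 31.6 FPKM in NC libraries, at 31.7, 27.8 and 25.6 FPKM in SFRP2 siRNA libraries, and at 15.9, 14.7 and 13.6 FPKM in RAB6A siRNA libraries. The highest RAB6A siRNA library was below the lowest of the other 6. Zc3h12a was 2.10-fold lower with RAB6A siRNA than in NC (log2 fold change -1.07, SE 0.08, limma adjusted p = 1.2e-05). With SFRP2 siRNA the log2 fold change was -0.13 (SE 0.08, limma adjusted p = 0.412).

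Both nuclear regulators rose under RAB6A siRNA. BCL3 is an atypical IκB protein that keeps NF-κB p50 dimers on DNA. Bcl3 (chr7:19808462-19822770, minus strand) was at 20.4, 21.2 and 23.0 FPKM in NC libraries, at 21.3, 21.5 and 18.3 FPKM in SFRP2 siRNA libraries, and at 55.5, 53.0 and 48.9 FPKM in RAB6A siRNA libraries. The RAB6A siRNA libraries lay well above the other 6. Bcl3 was 2.44-fold higher with RAB6A siRNA than in NC (log2 fold change 1.28, SE 0.07, limma adjusted p = 4.6e-06). The value with SFRP2 siRNA was -0.08 (SE 0.08, limma adjusted p = 0.581).

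SBNO2 is a transcriptional regulator induced by IL-10 through STAT3 in macrophages. Sbno2 (chr10:80056992-80105571, minus strand) was at 9.31, 7.69 and 9.34 FPKM in NC libraries, at 7.40, 7.25 and 7.06 FPKM in SFRP2 siRNA libraries, and at 13.4, 13.0 and 11.3 FPKM in RAB6A siRNA libraries. The 3 groups did not overlap, with SFRP2 siRNA lowest and RAB6A siRNA highest. Sbno2 was 1.43-fold higher with RAB6A siRNA than in NC (log2 fold change 0.52, SE 0.10, limma adjusted p = 0.0023). Its value with SFRP2 siRNA was -0.27 (SE 0.08, limma adjusted p = 0.199).

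The exact two-sided permutation test of single genes gave p = 0.1, the smallest that 3 libraries against 3 allow, for each of the 8 regulators called under RAB6A siRNA. For Socs1 and for Tnip3 this exact test gave p = 0.2. The fold criterion of 1 on the log2 scale cut closely through the regulators that fell. Over 17 alternative ways to process or fit the data, Cish, Zfp36 and Bcl3 were DEGs in 17, Irak3 and Zc3h12a in 16 each, Socs3 in 5 and Tnip1 in 4. Socs3 passed the criterion when NC replicate 2, RAB6A siRNA replicate 1 or RAB6A siRNA replicate 2 was left out (-1.02, -1.06 and -1.01). Tnip1 passed it when NC replicate 2 or RAB6A siRNA replicate 3 was left out (-1.02 and -1.04). Both genes also passed it with median-of-ratios scaling and with quantile normalization.

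RAB6A siRNA was also compared directly with SFRP2 siRNA, a comparison that shares the RAB6A siRNA libraries with the one above. Of the 10 regulators, 8 had an adjusted p under 0.05 (limma), against 73.4% of 12764 genes tested (37.6% higher and 35.8% lower), and all 8 had the same direction as against NC. Cish, Zfp36, Bcl3 and Sbno2 were higher with RAB6A siRNA, by 2.26, 1.60, 1.36 and 0.79 on the log2 scale. Cish, at 0.484 FPKM in SFRP2 siRNA libraries, passed the filter of a mean of 0.5 FPKM here only through the RAB6A siRNA libraries, where it is high, so that its being called follows in part from the filter. Irak3, Zc3h12a, Tnip1 and Socs3 were lower, with log2 fold changes of -1.44, -0.93, -0.91 and -0.79. DEGs were Cish, Zfp36, Bcl3 and Irak3, with 31.1% of all genes. Zc3h12a also passed without SFRP2 siRNA replicate 3 (a value just past -1) and with the correction for GC content and length (-1.03), and Socs3 and Tnip1 passed after quantile normalization (-1.08 and -1.10). For Socs1 the log2 fold change was 0.00 (95% interval -0.38 to 0.38, limma adjusted p = 0.995). For Tnip3 it was -0.24 (95% interval -0.68 to 0.20, limma adjusted p = 0.276; -0.73 and adjusted p = 0.0095 after quantile normalization), although its RAB6A siRNA libraries all lay below the SFRP2 siRNA libraries, as was the case in either direction for 77.0% of all genes.

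Ratios of 2 regulators within a library do not depend on its depth. Pairs were chosen after the values were seen, and the ratios were not tested. Zfp36 was 4.88 to 5.20 times as high as Zc3h12a in NC libraries, 4.84 to 5.13 times in SFRP2 siRNA libraries and 26.2 to 32.4 times in RAB6A siRNA libraries. Bcl3 to Irak3 was 0.974 to 1.03 in NC, 0.715 to 0.935 in SFRP2 siRNA and 5.73 to 6.49 in RAB6A siRNA libraries. Socs3 to Cish was 432 to 666 in NC, 408 to 558 in SFRP2 siRNA and 42.0 to 52.5 in RAB6A siRNA libraries. The summed level of the 10 regulators was 684 ± 30.2 FPKM in NC, 626 ± 40.2 FPKM in SFRP2 siRNA and 746 ± 1.15 FPKM in RAB6A siRNA libraries (SD, n = 3). Zfp36 made up 22.9% of this sum in NC and 57.4% in RAB6A siRNA libraries, and Socs3 36.3% and 16.9%.

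**Figure D4:**
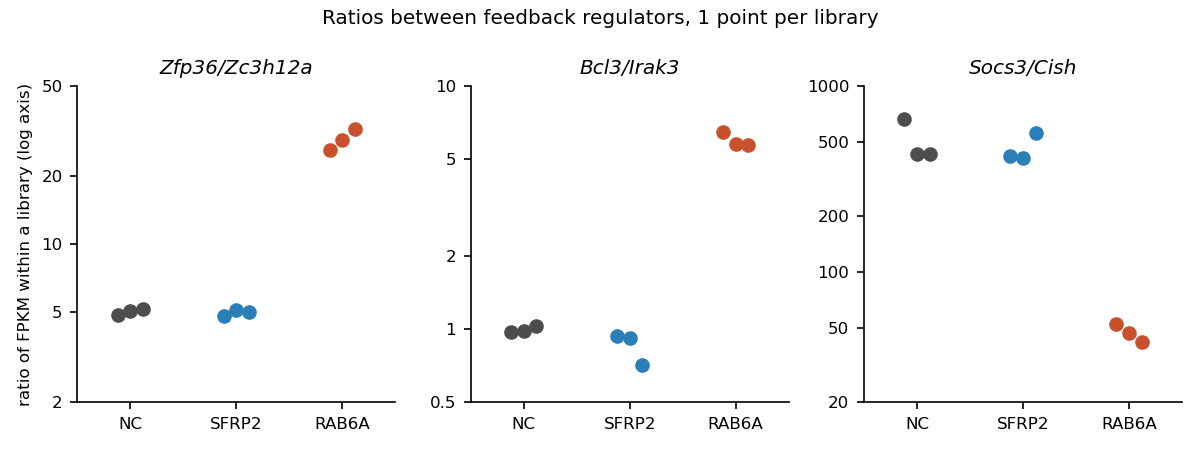
Ratio of the FPKM of 2 regulators within each library (log axes), 1 point per library, by siRNA group. NC and SFRP2 siRNA libraries are at 4.84 to 5.20 for Zfp36 to Zc3h12a and RAB6A siRNA libraries at 26.2 to 32.4.

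Relatives of the regulators differed among themselves under RAB6A siRNA. In the SOCS family, Socs4 rose from 6.34 ± 0.476 to 21.9 ± 1.64 FPKM (SD, n = 3), a log2 fold change of 1.77 (SE 0.08). Socs6 and Socs7 were lower, with log2 fold changes of -0.27 and -0.20 (limma adjusted p = 0.0396 and 0.0462). Socs6 missed the threshold in 7 of the 17 alternatives and Socs7 in 9 of the 16 that gave a value. Fits with a library left out were among them. Socs5 was not called (0.21), and Socs2 was too low to be tested. Tnip2, the relative of Tnip1 and Tnip3, rose by 0.99 on the log2 scale (SE 0.06). Zfp36l1, another AU-binding protein, rose by 1.73 (SE 0.09), whereas Zfp36l2 was lower, with a log2 fold change of -0.22 that was not called after quantile normalization or correction for GC content and length.

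Among IRAK kinases, Irak2, which carries the MyD88 signal forward, rose by 1.24 (SE 0.06), and no change of Irak1 (0.02) or Irak4 (-0.02) was called. Of the IκB family, Nfkbie and Nfkbib, which hold NF-κB in the cytoplasm, rose by 1.66 (SE 0.12) and 0.80 (SE 0.06) on the log2 scale. The nuclear IκB genes Nfkbiz and Nfkbid were lower, with log2 fold changes of -0.79 (SE 0.09) and -0.56 (SE 0.10), while Bcl3, of the same kind, rose. Nfkbia was not called (-0.09), nor were Sbno1 (-0.16) and Zc3h12c (-0.13). Zc3h12b and Zc3h12d were too low to be tested. With SFRP2 siRNA none of these relatives was called, as none of all genes was.

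**Figure D5:**
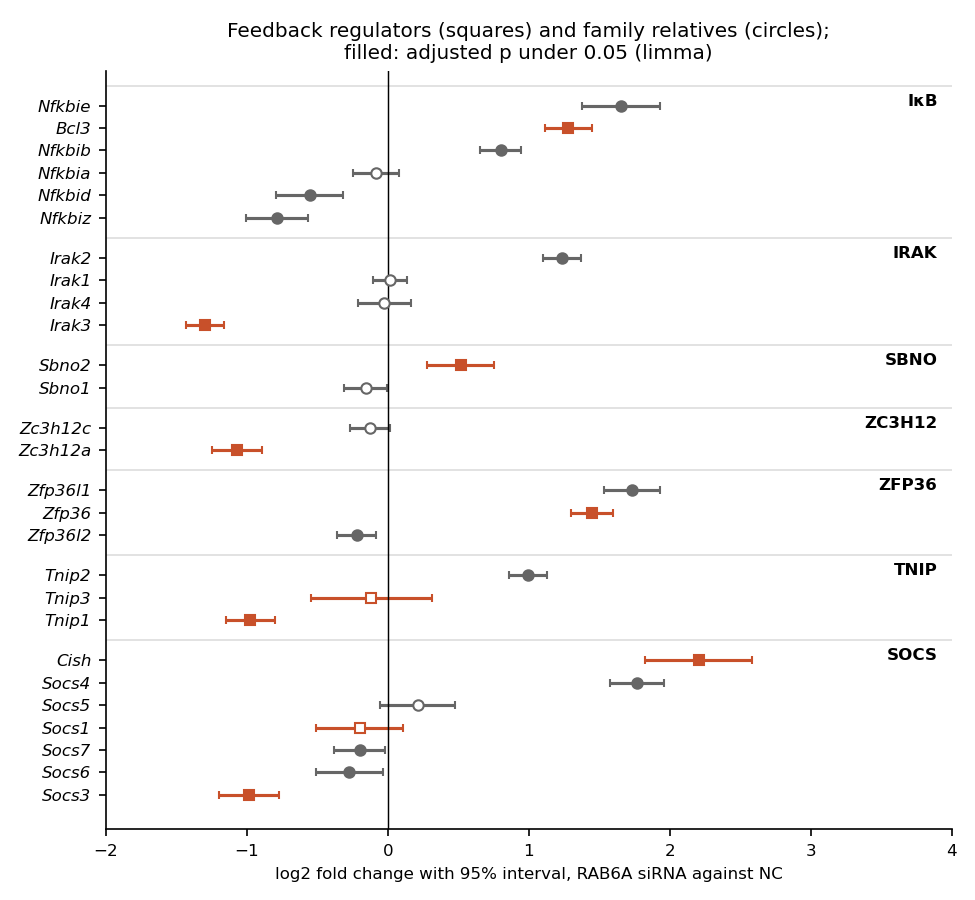
Log2 fold change of RAB6A siRNA against NC with its 95% interval for the regulators (squares) and their family relatives (circles), filled where limma's adjusted p was under 0.05. Within the IRAK family Irak2 is at 1.24 and Irak3 at -1.30, and within the TNIP family Tnip2 is at 0.99 and Tnip1 at -0.98.

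Further genes of the pathways were taken from lists written by hand. Of 23 genes from the LPS receptor to NF-κB, 8 rose and 11 fell under RAB6A siRNA, and their median on the log2 scale was -0.16. The adaptor gene Myd88 was at 22.0 ± 1.19 FPKM in NC and at 8.75 ± 0.315 FPKM in RAB6A siRNA libraries (SD, n = 3), a log2 fold change of -1.32 (SE 0.06). Ticam2 and Ly96, an adaptor and the co-receptor of TLR4, were also lower, with values of -1.02 and -0.88. Irak2, Map3k7 and Tab1 were the highest, at 1.24, 0.75 and 0.62, the last 2 encoding the kinase TAK1 and its partner.

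Of 18 genes of IL-10, interferon and JAK-STAT signaling, 5 rose and 9 fell, with a median of -0.19. Il10 fell from 3.62 ± 0.345 to 0.488 ± 0.169 FPKM (SD, n = 3), a log2 fold change of -2.70 (SE 0.23). Il6ra and Ifngr1 followed with values of -0.87 and -0.42, the latter not called after the correction for GC content and gene length. The receptor genes Ifnar1 and Il6st and the kinase gene Tyk2 were the highest, at 0.89, 0.60 and 0.62.

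The 37 other brakes include the relatives above from the SOCS, TNIP, ZFP36, ZC3H12 and IκB families, but not the IRAK genes or Sbno1. Of these brakes 33 were tested, of which 14 rose and 12 fell, with a median of -0.08. Tnfaip3, which encodes A20, and Il1rn, the IL-1 receptor antagonist, were among the lowest, at -0.996 (SE 0.05) and -0.92 (SE 0.07). Of 14 genes written down as targets of mRNA decay (cytokines and chemokines, Ptgs2, Ier3 and Nfkbiz, the last also among the brakes), 11 were tested, of which 2 rose and 8 fell, with a median of -0.79. The lowest besides Il10 were Csf2 and Il1a, at -2.06 (SE 0.09) and -1.36 (SE 0.14). Ptgs2 and Il1b were higher, at 0.68 and 0.21, the first not called after quantile normalization and the second not in 6 of 17 alternatives. The shares called in these lists are to be read beside 74.1% of all genes, with a median of 0.03. With SFRP2 siRNA 0 genes of any list had an adjusted p under 0.05 (limma). At an unadjusted p under 0.05 (limma) there were 3 of 23, 2 of 18, 8 of 33 and 1 of 11 genes tested, in the order of the lists above. These counts are to be read beside 18.5% of all 12017 genes tested.

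Other measures moved with the RAB6A siRNA group. Of the 10 macrophage markers, 2 rose and 4 fell, beside 37.6% of all genes called higher and 36.5% called lower. Fcgr3 (0.61) and Ptprc (0.17) were higher, and Lyz2 (-2.03), Csf1r (-1.44) and Mpeg1 (-1.22) were the lowest. Ptprc was not called in 8 of the 17 alternatives. Among markers of other cell types, S100a8 was called lower (-2.24) and Col1a2 (1.17) and Dcn (0.81) higher, these 3 with means under 1 FPKM in both groups. Each passed the filter of a mean of 0.5 FPKM only through the group where it is higher, so that its being called follows in part from the filter. Of 5 fibroblast markers 3 were tested, and 1 of these was not called. Dcn was not called in 8 of the 14 alternatives that gave a value, and Col1a2 was not after quantile normalization. The markers' part in the changes of the regulators was not tested. In bulk RNA a lower share of cells with a transcript and less of it per cell cannot be told apart. Several regulators overlap genes on the opposite strand, and whether reads were counted by strand is not given in the sources used here. Gm16174, which overlaps Bcl3, rose by 2.40 (SE 0.25), with a mean of 24.3 reads in NC and 112 in RAB6A siRNA libraries, while Bcl3 had at least 3964 reads in each RAB6A siRNA library. Tmbim4, which overlaps Irak3, had a log2 fold change of 0.13 (limma adjusted p = 0.0903). Gm47009, which also overlaps Irak3, was higher by 1.53 (limma adjusted p = 0.032), with a mean of 6.67 reads in NC and 20.3 in RAB6A siRNA libraries, where Irak3 had at least 1027 reads in each. Gm44710, which overlaps Zfp36, had a mean of 40.0 reads in RAB6A siRNA libraries.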

How the data were processed

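RNA-seq of 9 RAW264.7 libraries (3 each with NC, SFRP2 or RAB6A siRNA) was used, grouped by the labels. The authors deposited FPKM per Ensembl gene and library, not counts. The submitters' processing notes name HISAT2 and featureCounts of Subread, and the genome build and annotation were not given in the sources used here. Of 28137 identifiers, 27533 were named from GENCODE M21 (GRCm38). The authors' methods name DESeq2. As the deposited values are FPKM, log2(FPKM + 0.1) was tested with limma 3.58.1 in R 4.3.3 (eBayes, with its trend over expression). Genes needed a mean of at least 0.5 FPKM over the 6 libraries, with Benjamini-Hochberg adjustment over all genes. Fold changes on this scale understate changes of low genes. In 98.4% of named genes FPKM times exon length was a whole number of reads within 0.03 in all libraries, which gave the depth and an alternative with voom. Values of 1 to 20 reads were odd in 25.9% to 30.9% of cases, so mates of a pair were probably often counted as separate reads. No library repeated another of its group (mean chi-square per gene 15.6 to 28.0, where counting noise alone gives 1, or 2 with mates counted apart), which does not show that they are separate cultures. SE and intervals come from limma.

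The 10 genes and the lists were chosen with earlier results of these data known. Genes named are these 10, the siRNA targets, family relatives, the 3 highest and 3 lowest called genes of each list, and the 3 genes most like Cish. Genes overlapping a regulator were added after their values were seen. Alternatives were other pseudocounts, filters and scalings, eBayes without a trend, a replicate block, a single fit of all libraries, correction for GC content and length (natural splines, 5 degrees of freedom), voom, and each library left out in turn. Scripts were tested on simulated data. Python 3.11.15, numpy 2.4.6, pandas 2.3.3 and scipy 1.17.1 were used. Sequences are from RefSeq windows (GRCm38.p6) and GENCODE M21 transcripts; all 10 symbols matched.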

Additional observations from a re-analysis of the deposited data

How the results depend on the processing

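Under RAB6A siRNA against NC, the 8 regulators kept their direction and an adjusted p under 0.05 (limma) in all alternatives that gave a value. The log2 fold change of Cish ranged from 1.28 with a pseudocount of 1 to 2.42, that of Zfp36 from 1.03 to 1.63 and that of Sbno2 from 0.42 to 0.59. DEGs among all genes numbered 2389 with a pseudocount of 1, as against 3829, and 2501 as against 3972 for RAB6A siRNA against SFRP2 siRNA. Tnip3 passed the threshold after quantile normalization (-0.68, adjusted p = 0.014, against NC; -0.73, adjusted p = 0.0095, against SFRP2 siRNA) and, against SFRP2 siRNA, without a trend (adjusted p = 0.038). The cause was not tested.

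With SFRP2 siRNA against NC, 0 regulators were called in any alternative. Over all genes, 2 were called with the correction for GC content and gene length (2 DEGs) and 41 with voom (2 DEGs). Leaving out a library in turn gave 0 to 1 called and 0 to 1 DEGs, the 1 without NC replicate 1. Signs turned for values near 0. With the correction for GC content and gene length Tnip1 was at 0.058, Tnip3 at -0.10 and Bcl3 at 0.072, and after quantile normalization Tnip1 was at 0.017. Cish, tested in 3 alternatives only, was at 0.13 without SFRP2 replicate 3 and below 0 in the others. For RAB6A siRNA against SFRP2 siRNA, Socs1 turned to -0.00023 with a pseudocount of 1, -0.036 with median-of-ratios scaling, -0.092 with quantile normalization and -0.14 with the correction, and ranged from -0.13 to 0.13 with a library left out.

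Same-numbered libraries did not deviate together (r from -0.0847 to 0.0477), so the replicate numbers were not taken as pairs. With the replicate block 0 genes were called for SFRP2 siRNA, 9103 as against 9418 for RAB6A siRNA against NC and 9159 as against 9369 against SFRP2 siRNA, and 0, 8 and 8 regulators. Depth limits Cish and Tnip3 most, with as few as 76 and 214 reads.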

Other observations

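Genes whose log2 FPKM followed Cish most closely over the 9 libraries were Scd2, Gm12867 and Cox7c, among 6537 genes with a mean of at least 5 FPKM. Pearson's r was 0.996, 0.995 and 0.994, and 30 genes had an r over 0.99. Gm12867 passed the mean of 5 FPKM only through the RAB6A siRNA group, so that its place follows in part from this filter. The 9 points fall into 3 groups that share their siRNA, so that r mostly describes the difference of the RAB6A siRNA group. Scd2, a fatty acid desaturase gene, averaged 38.3 FPKM in NC, 38.6 FPKM in SFRP2 siRNA and 69.6 FPKM in RAB6A siRNA libraries. Cox7c, a gene of cytochrome c oxidase, averaged 96.5, 93.1 and 157 FPKM in the same order, and Gm12867 averaged 1.88, 1.55 and 22.6 FPKM.

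The other ratios between relatives in the set, also chosen after the values were seen and not tested, fell in range as follows. Socs3 was 68.8 to 79.1 times as high as Socs1 in NC libraries, 64.3 to 86.5 times in SFRP2 siRNA libraries and 36.9 to 49.5 times in RAB6A siRNA libraries. Tnip1 was 272 to 286 times as high as Tnip3 in NC libraries, 210.4 to 283 times in SFRP2 siRNA libraries and 137 to 177 times in RAB6A siRNA libraries.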
